A study of Mus musculus with 6 samples.

Results

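The genes described here are 9 genes known for their roles in myeloid cells, Csf1r, Csf3r, Il1b, Tgfbi, Cd300lf, Slfn4, Fcna, Itgax and Cybb, as they stood in RNA sequencing libraries of mouse CD8+ T cells. They were found by matching every RefSeq transcript of the deposited table to a gene, and they account for 9 of the 841 genes matched and for 10 of the 1037 transcripts listed. The samples were primary CD8+ T cells of wildtype genotype from mouse spleen, kept in complete RPMI medium with serum and 2-mercaptoethanol. The DNR group of 3 was treated for 2 h with daunorubicin, an anthracycline drug that inserts itself into DNA and traps topoisomerase II on it, and the DMSO group of 3 was given the solvent dimethyl sulfoxide. The 3 samples of each group are named biological replicates. The labels do not say whether these came from separate mice or how the CD8+ cells were purified, and the sources used here do not give strain, sex or age.

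Myeloid cells, which include monocytes, macrophages, dendritic cells and granulocytes, depend on colony-stimulating factors that signal through lineage-restricted receptors. The transcription factors PU.1 and C/EBP drive much of their gene expression. They sense microbes and damage with lectins and innate receptors, release cytokines such as interleukin-1 beta, and kill with reactive oxygen made by the NADPH oxidase. The spleen is rich in such cells, and most of these genes are not part of the usual program of resting CD8+ T cells, although activated CD8+ T cells can carry the Itgax product CD11c.

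Values are FPKM, sequenced fragments relative to transcript length and library depth, obtained by undoing the deposited log2(FPKM + 1). They are corrected for transcript length, so levels of different transcripts can be compared. The depth of each sample is unknown, since FPKM rounded to 2 decimals keep no read totals. The 9 genes were chosen by their presence in this table and with the FPKM of the DNR and DMSO samples in view, and the table itself holds few transcripts without such a difference: of the 388 transcripts with 1 FPKM or more in 3 or more samples, 99.7% passed the threshold of 0.05 on the adjusted p (limma), 43.0% of the 388 as higher and 56.7% as lower in DNR. With sample medians set equal, calls split into 61.2% higher and 38.8% lower. None of the directions given below for the 9 genes turned round, but this scaling moves DNR up, so members higher in DNR could not turn. Differences of the 9 genes are therefore given as a description, with no test. All directions rest on column codes, of which those with O match the DMSO descriptions alone and those with D were given to DNR. In these bulk libraries, more cells of a type and more RNA per cell cannot be told apart.

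A total of 5 transcripts, of Csf1r, Il1b, Tgfbi, Cd300lf and Slfn4, were above 0 in all 6 samples, and of these 4 were higher and 1 lower in every DNR sample than in any DMSO sample. Of all 347 transcripts above 0 in all 6 samples, 99.1% had groups apart in this way, 40.6% with DNR higher and 58.5% with DNR lower. Csf1r and Tgfbi stood at about 1.2 times their DMSO level, Il1b at 1.32 times, Cd300lf at 2.64 times and Slfn4 at 0.573 times. Of all 10 listed transcripts, 6 had higher and 2 had lower values in every DNR sample, and 2 had overlapping groups. Over all 1037 listed transcripts, 62.6% had groups that did not overlap, 27.7% with DNR higher and 34.9% with DNR lower. Of the 10, 7 had 1 FPKM or more in 3 or more samples, Fcna and 1 of the Itgax transcripts through the DNR samples alone.

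The promoter sequences of the 4 genes below are shown because each had a transcript above 0 in all 6 samples and an entry in the promoter table. They are the 300 bases from 250 before to 50 after the start site in that table (GRCm38.p6), written 5′ to 3′ on the gene's own strand. For Cd300lf, Il1b and Slfn4 this site lies inside the outer end of the gene in RefSeq. For Cd300lf it is base 115133992, while the gene begins at 115135372. Capitals mark GAGGAA, the core that PU.1 binds, and TATAAA, the TATA box, on either strand.
Cd300lf, chr11:115133943-115134242, minus strand: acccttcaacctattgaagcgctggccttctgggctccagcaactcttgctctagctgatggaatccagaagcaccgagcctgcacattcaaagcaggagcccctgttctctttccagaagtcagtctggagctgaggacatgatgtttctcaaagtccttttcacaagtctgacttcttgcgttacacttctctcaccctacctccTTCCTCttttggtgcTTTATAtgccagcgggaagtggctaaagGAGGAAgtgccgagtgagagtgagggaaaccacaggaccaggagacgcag
Il1b, chr2:129371090-129371389, minus strand: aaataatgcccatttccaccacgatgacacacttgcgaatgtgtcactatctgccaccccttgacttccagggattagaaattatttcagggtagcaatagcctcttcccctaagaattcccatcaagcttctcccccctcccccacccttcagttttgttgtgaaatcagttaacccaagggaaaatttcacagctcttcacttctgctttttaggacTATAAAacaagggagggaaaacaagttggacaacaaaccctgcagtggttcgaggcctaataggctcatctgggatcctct
Tgfbi, chr13:56609336-56609635, plus strand: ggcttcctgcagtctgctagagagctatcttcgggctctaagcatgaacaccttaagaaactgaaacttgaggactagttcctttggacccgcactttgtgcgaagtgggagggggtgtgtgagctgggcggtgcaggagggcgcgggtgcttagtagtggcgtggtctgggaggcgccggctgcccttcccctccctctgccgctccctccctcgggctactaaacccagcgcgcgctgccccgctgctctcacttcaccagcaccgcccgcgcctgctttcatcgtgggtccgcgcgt
Slfn4, chr11:83174936-83175235, plus strand: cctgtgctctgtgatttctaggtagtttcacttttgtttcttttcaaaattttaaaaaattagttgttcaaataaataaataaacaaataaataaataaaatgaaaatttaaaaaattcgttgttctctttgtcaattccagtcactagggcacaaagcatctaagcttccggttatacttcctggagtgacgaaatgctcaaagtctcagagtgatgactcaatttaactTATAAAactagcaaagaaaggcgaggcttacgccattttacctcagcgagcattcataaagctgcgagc
The start in this table was the first base of the transcript model of the listed transcript for Cd300lf, Il1b and Tgfbi, and lay 8 bases before it for Slfn4. Cd300lf held GAGGAA on both strands, once at bases 1 to 6 counted from the start and once, as its complement, at bases -43 to -38. The first of these is part of the longer form GAGGAAGT, found in 3.20% of all 32851 promoter windows. Il1b, Slfn4 and Cd300lf held TATAAA, the last on the opposite strand, against 13.6% of all windows. Of the 8 members with an entry in the promoter table, 4 held GAGGAA (Cd300lf, Fcna, Csf3r and Cybb), against 28.3% of all windows. The AP-1 motif TGANTCA was found in Itgax, Slfn4 and Cybb and in 7.81% of all windows. The C/EBP motif TTGCNNAA was found in 0 of the 8 and in 10.8% of all windows. Both strands were searched for each motif. These matches describe letters in a short window and do not show binding.

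Csf1r encodes the receptor tyrosine kinase for macrophage colony-stimulating factor and interleukin-34, on which the survival of monocytes and macrophages depends. It was the most abundant of the members. The gene lies on chromosome 18, from 61105572 to 61131139. Its only annotated RefSeq transcript, NM_001037859, was at 69.6, 71.1 and 79.1 FPKM in the DNR samples. In the DMSO samples it was at 63.2, 62.8 and 58.5 FPKM. The groups did not overlap, and the highest DNR sample was replicate 3. The means were 73.3 ± 5.12 FPKM in DNR and 61.5 ± 2.64 FPKM in DMSO (SD, n = 3 each), a ratio of 1.19 and a difference of 0.25 ± 0.07 (SE) on the log2(FPKM + 1) scale, which became 0.43 with sample medians set equal. Csf1r ranked between 39th and 52nd of the 1037 transcripts by level in the 6 samples. It stood above the immediate-early genes Jun, at 63.0 ± 5.70 FPKM in DNR and 49.4 ± 1.53 FPKM in DMSO, and Nr4a2, at 33.0 ± 1.92 FPKM in DNR and 26.0 ± 1.61 FPKM in DMSO (SD, n = 3 each).

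Csf3r encodes the receptor for granulocyte colony-stimulating factor, which governs neutrophil production. The gene lies on chromosome 4, from 126023441 to 126044975. Its predicted transcript XM_011240421 was listed at 0 in all 3 DNR samples, against 0, 1.43 and 0 FPKM in the DMSO samples. It was thus present in DMSO replicate 2 alone. It is 1 of 25 RefSeq transcripts annotated for the gene, and the other 24 are not in the table, so the level of the gene cannot be read from it. Of all listed transcripts, 31.4% were above 0 in a single sample.

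Il1b encodes interleukin-1 beta, a cytokine made as an inactive precursor and released after cleavage by caspase-1. The gene lies on chromosome 2, from 129364569 to 129371164. Its transcript NM_008361 was at 52.6, 62.4 and 62.0 FPKM in the DNR samples, against 39.2, 48.9 and 45.8 FPKM in the DMSO samples. Every DNR sample was above every DMSO sample, and replicate 1 was the lowest in both groups. The means were 59.0 ± 5.58 FPKM in DNR and 44.6 ± 4.95 FPKM in DMSO (SD, n = 3 each), a ratio of 1.32 and a log2 difference of 0.40 ± 0.12 (SE). Il1b had the widest spread within groups of the 3 most abundant members. At 6.6 kb it is also the shortest of the 9 genes, whose spans run up to 52.5 kb for Cybb. The listed Il1b transcript is 1 of 2 annotated for the gene.

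Tgfbi encodes a secreted matrix protein induced by TGF-beta that binds collagen and integrins, and it is expressed by monocytes and macrophages among other cells. The gene lies on chromosome 13, from 56609586 to 56639359. Its transcript NM_009369 was at 27.2, 27.7 and 29.5 FPKM in the DNR samples, against 23.4, 23.8 and 23.4 FPKM in the DMSO samples. The DMSO samples lay close together and all below the DNR samples. The means were 28.2 ± 1.19 FPKM in DNR and 23.5 ± 0.21 FPKM in DMSO (SD, n = 3 each), a ratio of 1.20 and a log2 difference of 0.25 ± 0.03 (SE), the same size as that of Csf1r. It too became 0.43 with sample medians set equal. The listed Tgfbi transcript is 1 of 2 annotated for the gene.

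Cd300lf encodes an inhibitory receptor of the CD300 family that carries tyrosine-based inhibitory motifs and is found on monocytes, macrophages, neutrophils and dendritic cells. The gene lies on chromosome 11, from 115116214 to 115135372. Its transcript NM_001347648 was at 6.59, 6.16 and 6.39 FPKM in the DNR samples, against 2.53, 2.47 and 2.24 FPKM in the DMSO samples. The gap between the groups was far wider than the spread within either. The means were 6.38 ± 0.22 FPKM in DNR and 2.41 ± 0.15 FPKM in DMSO (SD, n = 3 each), a ratio of 2.64 and a log2 difference of 1.11 ± 0.04 (SE). Among the 347 transcripts above 0 in all 6 samples, 6 had a larger rise. The gene has 9 annotated transcripts and 1 is listed. The other 8 could offset or share this change, and no gene total can be given.

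Slfn4 belongs to the Schlafen family, whose members are induced by interferon, and in the mouse it is known from monocytes, macrophages and neutrophils. The gene lies on chromosome 11, from 83175172 to 83190216. Its transcript NM_001302559 was at 8.19, 7.15 and 6.58 FPKM in the DNR samples, against 13.7, 12.6 and 11.9 FPKM in the DMSO samples. Here the direction was the opposite one, with every DNR sample below every DMSO sample. The means were 7.31 ± 0.82 FPKM in DNR and 12.8 ± 0.92 FPKM in DMSO (SD, n = 3 each), a ratio of 0.573 and a log2 difference of -0.73 ± 0.10 (SE). Among the 347 transcripts above 0 in all 6 samples, 40 had a larger fall. The listed transcript is 1 of 10 annotated for the gene.

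**Figure D1:**
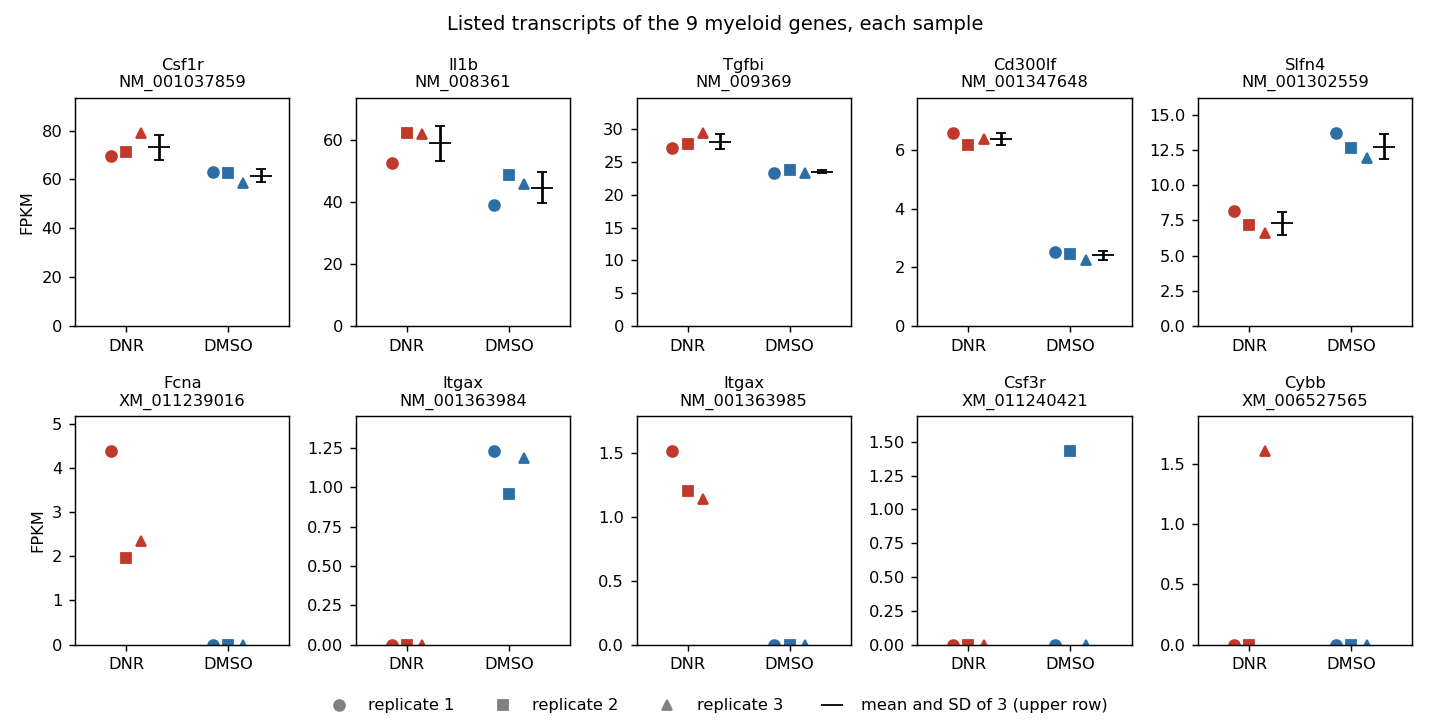
FPKM (vertical axes from 0, a scale of its own in each panel) of the 10 listed transcripts of the 9 genes in the 3 DNR samples (red) and the 3 DMSO samples (blue), with symbols for the replicate number; the bars in the upper row are the mean and SD of 3. Csf1r, Il1b, Tgfbi and Cd300lf lie higher and Slfn4 lower in DNR without overlap, while in the lower row Fcna and both Itgax transcripts are at 0 throughout a group and Csf3r and Cybb are above 0 in a single sample each.

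The order of levels, Csf1r above Il1b above Tgfbi, was the same in all 6 samples, and the values of these 3 transcripts did not overlap within either group. In DMSO, Slfn4 came next and Cd300lf below it. In DNR the ranges of these 2 overlapped, at 6.16 to 6.59 FPKM for Cd300lf and 6.58 to 8.19 FPKM for Slfn4. Together the 10 transcripts summed to between 170.1 and 188.7 FPKM in the DNR samples and between 143.0 and 152.9 FPKM in the DMSO samples. The mean sums were 178.8 ± 9.37 FPKM in DNR and 146.4 ± 5.63 FPKM in DMSO (SD, n = 3 each), a difference of 32.4 FPKM that became 54.1 FPKM with sample medians set equal. These sums were 1.26 ± 0.05% of the summed FPKM of the table in DNR and 1.08 ± 0.04% in DMSO. Without Csf1r the mean sums were 105.6 ± 4.66 FPKM in DNR and 84.9 ± 5.03 FPKM in DMSO. The table as a whole summed to between 14023 and 14395 FPKM in the DNR samples and between 13501 and 13669 FPKM in the DMSO samples. The median log2 difference of the 5 members above 0 in all 6 samples was 0.25, against -0.22 over all 347 such transcripts. Their median absolute difference was 0.40, against 0.42 over the 347. The 5 were chosen with these values in view, so the contrast is a description and tests nothing. Setting sample medians equal moves the log2 differences of all 347 up by 0.18.

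**Figure D2:**
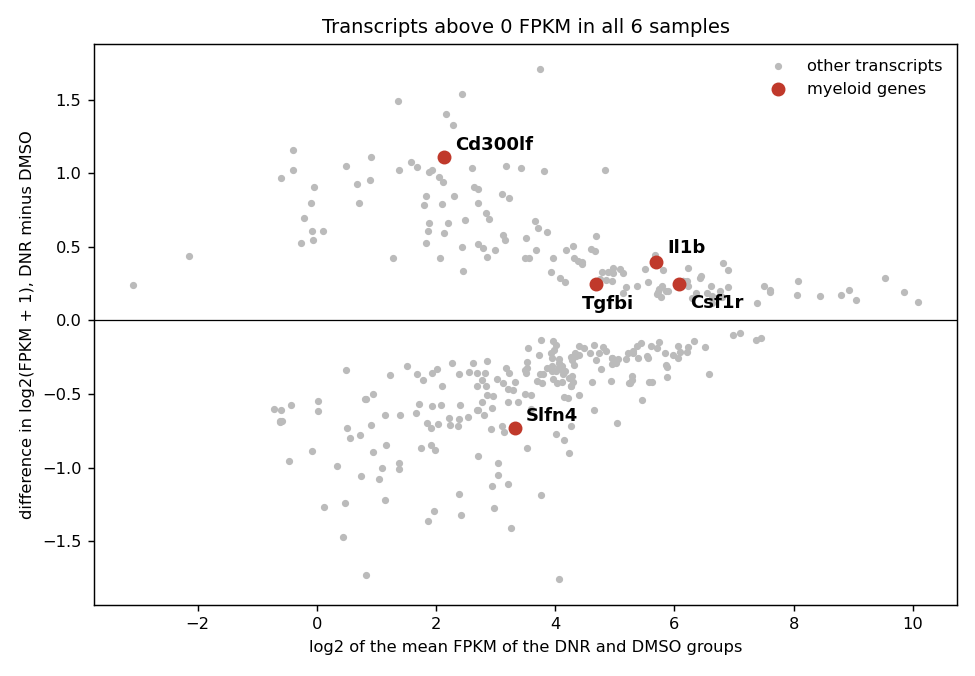
Difference in log2(FPKM + 1) between the DNR and DMSO means (vertical axis) against the log2 of the mean FPKM of both groups (horizontal axis) for the 347 transcripts above 0 in all 6 samples, with the 5 members in red. Differences narrow as the level rises; Csf1r and Tgfbi, at 0.25, lie within the band of other transcripts of their level, and Cd300lf, at 1.11, is exceeded by 6 transcripts.

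Levels are also given relative to Csf1r within each sample. These values restate the ratios above in another form and are no separate result. Overlap between 3 and 3 samples does not show that a proportion was kept. Tgfbi was at 0.391, 0.390 and 0.373 of the Csf1r level in the DNR samples, against 0.370, 0.379 and 0.401 in the DMSO samples, so the ranges overlapped. Il1b was at 0.755, 0.878 and 0.784 of the Csf1r level in the DNR samples and at 0.619, 0.778 and 0.784 in the DMSO samples, also overlapping. Cd300lf was at 0.0947, 0.0867 and 0.0808 of the Csf1r level in the DNR samples and at 0.0400, 0.0393 and 0.0383 in the DMSO samples, with no overlap. Slfn4 was at 0.118, 0.101 and 0.0832 of the Csf1r level in the DNR samples and at 0.217, 0.201 and 0.204 in the DMSO samples, again with no overlap. The main transcript of Psap, which encodes the lysosomal precursor prosaposin, also had overlapping ranges. It was at 7.30, 7.55 and 6.59 times the Csf1r level in the DNR samples and 7.15, 7.32 and 7.59 times in the DMSO samples. A similar rise was not particular to myeloid genes. The immediate-early genes Jun and Nr4a2 had ratios of DNR to DMSO means of 1.28 and 1.27, against 1.19 for Csf1r. Actb, the beta-actin gene, was at 1136 ± 36.7 FPKM in DNR and 1042 ± 19.5 FPKM in DMSO (SD, n = 3 each), a ratio of 1.09. Its log2 difference was 0.12 as deposited and 0.31 with sample medians set equal. Because Actb was the highest transcript in all 6 samples, quantile normalization gives it 0.00 whatever its values.

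**Figure D3:**
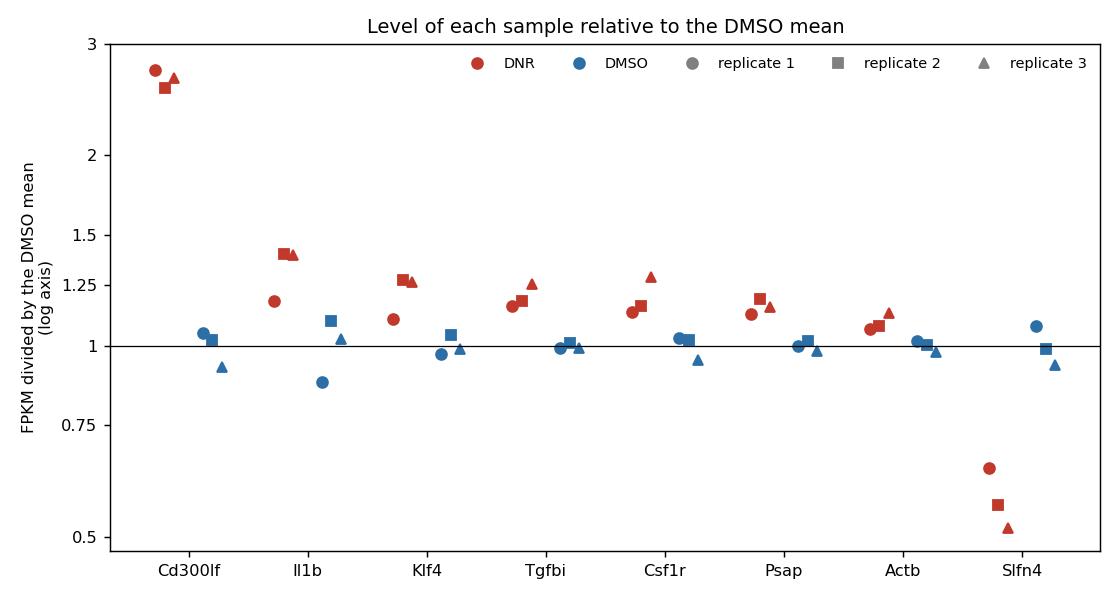
FPKM of each sample divided by the DMSO mean of the same transcript (vertical log axis) for 5 members and for Klf4, the main Psap transcript and Actb, with DNR samples in red left of DMSO samples in blue. Csf1r, Tgfbi, Psap and Klf4 lie at similar ratios in DNR (mean ratios of 1.19, 1.20, 1.16 and 1.21), Cd300lf at 2.64 and Slfn4 at 0.573.

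Fcna, Itgax and Cybb stood at a few FPKM or less and at 0 in part of the samples. Fcna encodes ficolin A, a lectin that starts the lectin pathway of complement and is made by macrophages of mouse liver and spleen. The gene lies on chromosome 2, from 25624665 to 25635440. Its predicted transcript XM_011239016 was at 4.39, 1.96 and 2.36 FPKM in the DNR samples and listed at 0 in all 3 DMSO samples. The gene has 4 annotated transcripts, of which 1 is listed. Cybb encodes the catalytic subunit of the phagocyte NADPH oxidase. The gene lies on chromosome X, from 9435252 to 9487766. Its predicted transcript XM_006527565, 1 of 2 annotated, was at 0, 0 and 1.61 FPKM in the DNR samples. It was listed at 0 in all 3 DMSO samples, so it was present in DNR replicate 3 alone. Over the table, 22.7% of transcripts were listed at 0 in all samples of one group and above 0 in all of the other, as 3 of the member transcripts were. A value of 0 for 1 of several transcripts of a gene can be a failed estimate, so no fold change is given for these.

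Itgax encodes CD11c, the alpha X chain of a beta2 integrin and a common marker of dendritic cells. The gene lies on chromosome 7, from 128129526 to 128150657. It was listed with 2 curated transcripts that went opposite ways. NM_001363985 was at 1.51, 1.20 and 1.14 FPKM in the DNR samples and listed at 0 in all 3 DMSO samples. NM_001363984 was listed at 0 in all 3 DNR samples, against 1.23, 0.96 and 1.19 FPKM in the DMSO samples. The first reached 1 FPKM in 3 samples and the second just missed it. Their sum was 1.51, 1.20 and 1.14 FPKM in the DNR samples, against 1.23, 0.96 and 1.19 FPKM in the DMSO samples, and the groups overlapped. Itgax has 4 annotated transcripts, of which these 2 are listed, so the sum is not a gene total. Fgd2, which encodes an exchange factor for Cdc42 found in antigen-presenting cells, also had 2 listed transcripts that went opposite ways, but 1 of them was above 0 in all 6 samples. Its transcript XM_030249817 was at 6.71, 3.26 and 11.3 FPKM in the DNR samples and listed at 0 in all 3 DMSO samples. NM_013710 was at 5.13, 8.14 and 3.64 FPKM in the DNR samples, against 13.2, 12.4 and 12.9 FPKM in the DMSO samples. The sums were 12.7 ± 1.95 FPKM in DNR and 12.8 ± 0.43 FPKM in DMSO (SD, n = 3 each), again overlapping.

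**Figure D4:**
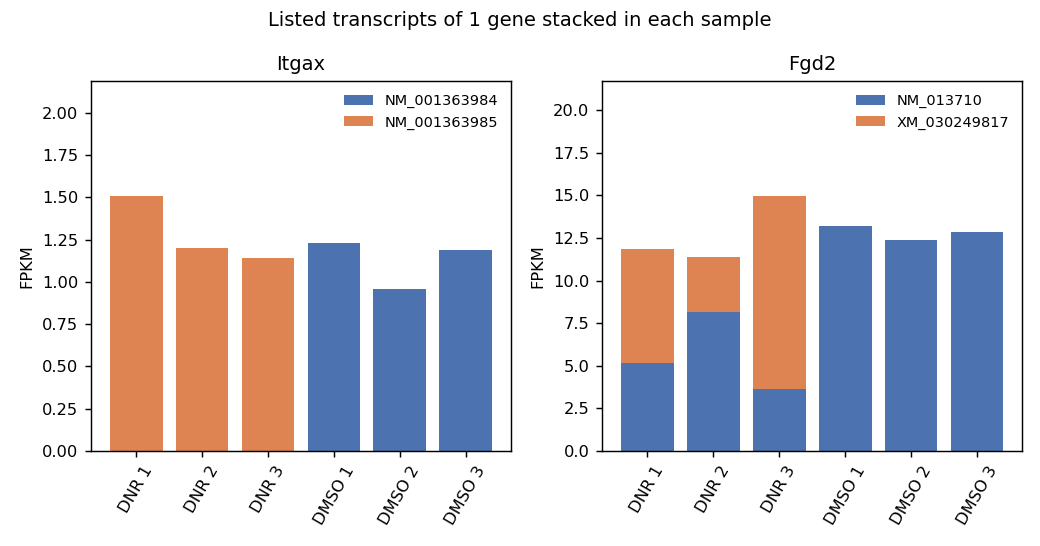
FPKM of the listed transcripts of Itgax and Fgd2 stacked within each of the 3 DNR and 3 DMSO samples (vertical axes from 0). For Itgax the colour changes between the groups, and for Fgd2 another colour is added in DNR. The stacked totals overlap: 1.14 to 1.51 FPKM in DNR and 0.96 to 1.23 FPKM in DMSO for Itgax.

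The other genes of the members' pathways were few in the table, which does not show that they were not expressed. Of 17 genes of the interleukin-1 pathway, 5 were listed, and besides Il1b 2 of their transcripts were tested, of which 1 was past the threshold as higher and 1 as lower. These were Irak1, a kinase of the receptor complex, at 19.4, 21.7 and 29.4 FPKM in the DNR samples, against 15.9, 16.7 and 15.4 FPKM in the DMSO samples, and Traf6, the ubiquitin ligase downstream of it. Traf6 was at 5.57, 6.80 and 5.39 FPKM in the DNR samples, against 8.82, 7.85 and 8.58 FPKM in the DMSO samples. Neither pair of groups overlapped, which held for 99.1% of all transcripts above 0 in all 6 samples. A transcript of the receptor gene Il1r1 was listed at 0 in all DNR samples, against 1.05, 0.54 and 1.08 FPKM in the DMSO samples. A transcript of the inflammasome sensor gene Nlrp3 was above 0 in DMSO replicate 1 alone, at 5.50 FPKM.

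Of 20 myeloid transcription factor genes, 4 were listed, and of 3 tested transcripts 2 were past the threshold as higher and 1 as lower. Klf4, which takes part in monocyte differentiation and also in T cell quiescence, was at 31.0, 35.8 and 35.5 FPKM in the DNR samples, against 27.4, 29.3 and 27.8 FPKM in the DMSO samples. A transcript of Nr1h3, the gene of the cholesterol-sensing receptor LXR alpha, was at 1.42, 1.82 and 1.28 FPKM in the DNR samples and listed at 0 in the DMSO samples. Egr2, which is induced in both macrophages and stimulated T cells, was at 28.9, 28.8 and 26.2 FPKM in the DNR samples, against 34.0, 31.5 and 35.5 FPKM in the DMSO samples. Its log2 difference of -0.26 became -0.07 with sample medians set equal and -0.22 with quantile normalization. A transcript of Irf5 was above 0 in DMSO replicate 1 alone, at 2.74 FPKM. Among the colony-stimulating factors and their receptors (12 genes), the NADPH oxidase (7), the CD300 and related inhibitory receptors (17), the beta2 integrins (5), the Schlafen genes (9), the ficolins, lectins and complement genes (13) and the matrix genes set with Tgfbi (6), the table listed members of the present set alone.

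Markers by which the cell types could be checked were mostly not among the listed transcripts. Of 20 CD8 T cell markers, 1 was listed, Satb1, and Cd8a and Cd3e were not. A gene that is not listed may still be expressed, since the table holds few transcripts without a difference between the groups. Satb1, a chromatin organiser of T cells, had 3 listed transcripts that summed to between 84.0 and 94.5 FPKM in the DNR samples and between 104.3 and 113.7 FPKM in the DMSO samples. The means were 90.0 ± 5.41 FPKM in DNR and 110.5 ± 5.36 FPKM in DMSO (SD, n = 3 each). Both tested Satb1 transcripts were past the threshold as lower, but for the more abundant one, XM_006523926, the size depended on scaling. Its log2 difference was -0.18 as deposited, 0.00 with sample medians set equal and -0.22 with quantile normalization.

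Of 43 markers of monocytes and macrophages, 3 were listed (Psap, Fgd2 and Slc40a1), with a summed level of 529.4 to 562.6 FPKM in the DNR samples and 481.5 to 497.7 FPKM in the DMSO samples. Most of this was Psap, a gene that many cell types express, with a main transcript at 521.8 ± 14.1 FPKM in DNR and 451.8 ± 8.02 FPKM in DMSO (SD, n = 3 each). Its log2 difference was 0.21 as deposited and 0.39 with sample medians set equal. Its rank of 5 in all 6 samples fixes the difference at 0.00 under quantile normalization. A second Psap transcript went the other way, at 9.44, 14.9 and 13.6 FPKM in the DNR samples, against 21.7, 25.6 and 20.7 FPKM in the DMSO samples. Of the 4 tested transcripts of this list, 2 were past the threshold as higher and 2 as lower. The iron exporter gene Slc40a1 was above 0 in DMSO replicate 3 alone, at 4.24 FPKM. Adgre1, Cd68 and Lyz2 were not listed, nor was any of the 18 neutrophil or 17 dendritic cell markers. Markers of erythroid cells and platelets, of CD4 T cells and of natural killer cells were likewise not listed. Not being listed does not show that these genes or cells were absent from the libraries. Of 16 B cell markers, 2 were listed, Spib and Ebf1, with a summed level of 1.88 to 5.97 FPKM in the DNR samples and 0 to 2.27 FPKM in the DMSO samples. Whether other cell types in the libraries had a part in the differences of the 9 genes was not tested, and the name myeloid rests on what these genes are known for.

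For each member above 0 in all 6 samples, the 3 transcripts of other named genes most like it were found by Pearson's correlation of log2(FPKM + 1) over the 6 samples, among 328 candidates. The samples form 2 groups that most listed transcripts separate, so these values are high throughout and describe the table. Csf1r was most like Actb, Nfat5 and Trf, the transferrin gene (0.997, 0.991 and 0.990). Tgfbi was most like Tmem106c, Rnf149 and Abcf2 (0.995, 0.992 and 0.987), and Il1b like Nucb1, Pml and Klf4 (0.977, 0.964 and 0.963). Cd300lf was most like Hexim1, Abcf2 and Sema4d (0.990, 0.989 and 0.988). Slfn4 was most like Zdhhc18, Kdm5a and Dcaf1 (0.997, 0.996 and 0.993).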

How the data were processed

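RNA of 3 DNR and 3 DMSO samples was sequenced by the submitters from total RNA with a SMARTER mRNA-Seq kit, per the labels' protocols. The authors deposited log2(FPKM + 1) values for 1037 RefSeq transcripts, a scale read from the values, since undoing it gave 2 decimals in every cell (largest distance 3.2e-11 FPKM). Builds named in the submitters' processing notes are GRCm38 and mm10. How reads were aligned and quantified, and how transcripts were selected for the table, is not stated in the sources used here. Linear FPKM had been planned for, and the deposited scale equals log2 with the planned pseudocount of 1. Gene names and coordinates are from RefSeq (GRCm38.p6), which matched 1001 of the transcripts, and transcript models from GENCODE M21 of the same build. Columns were assigned to samples by name.

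Transcripts reaching 1 FPKM in at least 3 samples (388) were compared with limma 3.58.1 in R 4.3.3 (eBayes with trend, two-sided, Benjamini-Hochberg adjustment, threshold 0.05), after a test on simulated data. This fit gave the background shares and the calls of genes other than the 9. The members were described with Python 3.11.15. The labels name the samples of each group biological replicates without saying what was repeated, so spreads are those between these samples. The members, the gene lists and the naming rule (all members, all listed genes of the lists, Jun, Nr4a2, Actb and the 3 most alike) were chosen with earlier results of these data known. 1 gene of these lists is not reported here.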

Additional observations from a re-analysis of the deposited data

How the results depend on the processing

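No alternative reversed a member transcript, but for most this was fixed in advance. In 8 of the 10 the groups do not overlap, so leaving out a sample or changing the pseudocount cannot reverse them. Setting medians equal moves DNR up, so it cannot turn a member that is higher in DNR. Csf3r and Cybb, each above 0 in a single sample, had no difference left without DMSO replicate 2 for Csf3r and without DNR replicate 3 for Cybb. All transcripts past the threshold (387 of 388 tested) numbered 387 with a pseudocount of 0.1, 273 with sample medians set equal, 320 with quantile normalization, 330 of 363 gene sums and 566 of 1037 with no filter, and 376 to 383 when a sample was left out. Equal medians move DNR up by 0.18 on the log2 scale against DMSO and turn the split of calls to 61.2% higher and 38.8% lower, against 43.2% and 56.8% as deposited. Under it the log2 difference was 0.43 for Csf1r and Tgfbi, 0.58 for Il1b, 1.30 for Cd300lf and -0.54 for Slfn4. The difference in the members' summed FPKM, 32.4 as deposited, was 54.1 with equal medians, 33.9 with quantile normalization and 20.7 without Csf1r, and 27.5 to 36.8 when a sample was left out. The replicate block left 385 transcripts past the threshold. Same-numbered samples correlated at -0.05, 0.05 and 0.04 in their deviations from the group means, so the numbers were not taken to pair samples. The depth is unknown and limits what can be read from transcripts near 1 FPKM.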

Other observations

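Other genes known from innate or antigen-presenting cells were chosen by name from the symbols in the table, with no list fixed for them: 12 genes with 14 transcripts. The choice is not complete, so no direction is given for them as a group. Themis2, an adaptor of B cells and macrophages, was at 63.7, 66.3 and 60.9 FPKM in the DNR samples, against 56.2, 53.6 and 56.1 FPKM in the DMSO samples. Syk, the tyrosine kinase downstream of Fc and B cell receptors, was at 61.4, 59.0 and 60.8 FPKM in the DNR samples, against 74.0, 68.6 and 74.4 FPKM in the DMSO samples. Its log2 difference of -0.26 was -0.07 with sample medians set equal and -0.31 with quantile normalization. Tnfaip2 was at 38.1 ± 2.71 FPKM in DNR and 29.6 ± 1.34 FPKM in DMSO, and Hvcn1, a proton channel that supports the oxidative burst, at 23.9 ± 2.92 FPKM in DNR and 17.7 ± 1.13 FPKM in DMSO (SD, n = 3 each). None of these groups overlapped, as was so for 99.1% of all transcripts above 0 in all 6 samples.

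The others were low. Trpm2, a calcium channel gated by ADP-ribose, had a transcript XM_017313962 at 3.26, 4.61 and 3.61 FPKM in the DNR samples, against 1.08, 1.86 and 1.21 FPKM in the DMSO samples, and another, XM_017313959, at 1.97, 2.45 and 2.73 FPKM in the DNR samples, against 3.75, 6.38 and 5.31 FPKM in the DMSO samples. Transcripts of the eosinophil genes Siglecf and Ccr3 went opposite ways: Siglecf was at 0.99, 0.44 and 0.92 FPKM in the DNR samples and listed at 0 in the DMSO samples, and Ccr3 was listed at 0 in the DNR samples, against 0.29, 0.28 and 0.33 FPKM in the DMSO samples. Pparg was at 0.58, 0.48 and 0.67 FPKM in the DNR samples and listed at 0 in the DMSO samples. Transcripts of Tlr3 and Plau were above 0 in all 3 DNR samples and listed at 0 in the DMSO samples, and those of Nod2 and Nfam1 and the third of Trpm2 were above 0 in a single DNR sample.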
